A study of Rattus norvegicus with 18 samples.

Results

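At day 30 after spinal cord injury, the libraries named In of the female rat motor cortex were compared with those named S across all genes. The members are the 6 female day 30 libraries, 3 In (In 1, In 2 and In 3) and 3 S (S 1, S 2 and S 3), out of 18 libraries in the study, which were chosen by the sex, day and condition in their labels. The labels do not spell out In and S, so the names are kept as given. The rats' age and strain and the injury itself were not given in the sources used here. PolyA RNA was sequenced, and the series describes the material as primary neurons enriched from motor cortex. The 6 male In and S libraries of the same day (the S numbers being 1, 2 and 4) entered the fit to estimate the spread and served as a second background. Whether the replicates came from separate rats is not given, so p-values measure only the spread between these libraries, which may be technical.

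The genes that passed an adjusted p under 0.05 are on lists of choroid plexus epithelium, fenestrated vessels, or ependyma and motile cilia. Most genes higher at an unadjusted p under 0.05 are on neither the choroid plexus list nor the cilia lists. The choroid plexus is a tuft of epithelium over capillaries that secretes cerebrospinal fluid. Its epithelial cells carry transporters for ions, water, folate and organic anions, and its capillaries are fenestrated, unlike those of the cortex, which form the blood-brain barrier. The ependyma is the neighbouring epithelium whose motile cilia move that fluid, and Foxj1 is the transcription factor that switches on the genes of motile cilia. Neither tissue is part of the motor cortex itself. In bulk RNA, more cells of a type and more RNA per cell cannot be told apart.

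Of 15074 genes tested, 5 rose in In (0.0332%) and 0 fell (0%) at an adjusted p under 0.05 (edgeR quasi-likelihood test, Benjamini-Hochberg). The 5 were Folr1, Tmem72 and Slco1a5 of the choroid plexus epithelium list, Plvap of fenestrated vessels and Foxj1 of ciliated cells. Folr1, Tmem72 and Slco1a5 passed the filter on low counts only through the In libraries where they are high, whereas Plvap and Foxj1 also pass it on the other 9 libraries. At an unadjusted p under 0.05 there were 178 genes higher (1.18%) and 83 lower (0.551%), 261 in all, where 754 would be under 0.05 if no gene differed. All 3 In libraries lay above every S library for 635 genes (4.21%) and below for 574 (3.81%), and 49.5% of the log2 fold changes were above 0 and 50.4% below. DESeq2 called 33 genes, all higher, and limma-voom 0, with 633 at an unadjusted p under 0.05. The 5 calls depended on the libraries in the fit: without In 2, In 3, S 1, S 2, S 3 or male S 1, each left out alone, edgeR called 0 genes (between 227 and 306 at an unadjusted p under 0.05), whereas without In 1 it called 24 and without male In 1 it called 10. The 5 genes kept their sign in all 17 alternative fits, but this was nearly fixed in advance. For each gene every In library lay above every S library, so leaving 1 out could hardly reverse the sign.

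**Figure D1:**
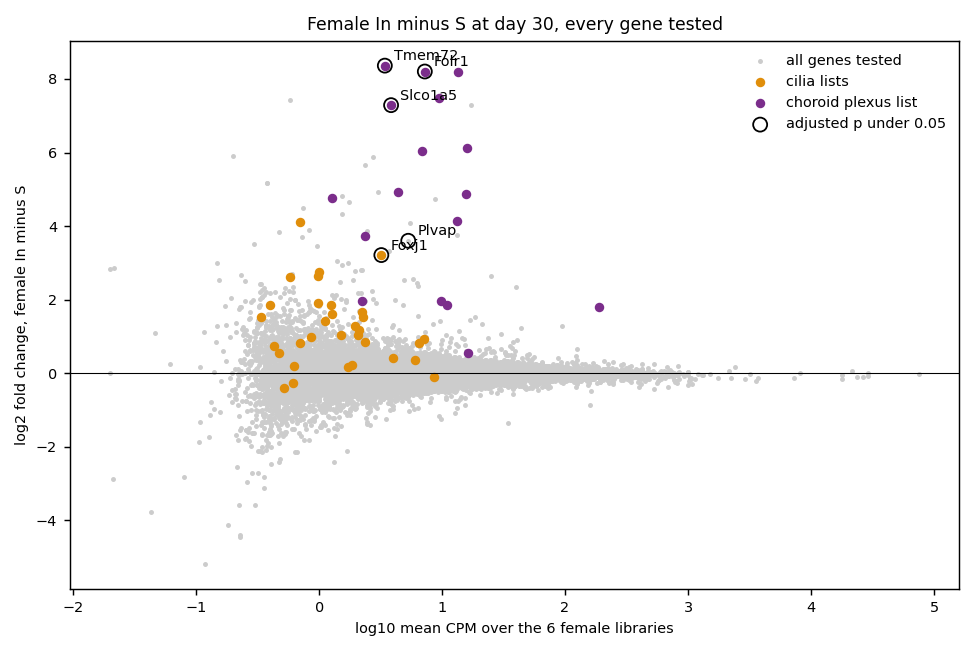
Log2 fold change of female In minus S (vertical axis) against the log10 of the mean level in CPM over the 6 female libraries (horizontal axis). Each point is 1 of the 15074 genes tested, with the choroid plexus list in purple, the cilia lists in orange and the 5 genes past the threshold ringed. Purple points are among the highest fold changes, beside genes on neither list such as Mfrp (7.29) and Prr32 (4.94), while the grey cloud is centred on 0.

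The female libraries held between 16847123 and 18211986 counts, and 3 counts correspond to between 0.114 and 0.150 CPM (counts per 1e6 counts of the library, scaled with TMM factors). The median standard error of a log2 fold change was 0.92 for genes under 1 CPM, 0.37 for 1 to 10 CPM and 0.18 above 100 CPM. RNA of glia and vessels was present beside that of neurons in every library: the summed level of pan-neuronal markers ran from 2100 to 3295 CPM in the female libraries, of endothelial markers from 1610 to 2174 and of microglial markers from 1643 to 2494, and Mbp, which encodes a myelin protein, took 2.12% to 3.62% of the counts.

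The regions upstream of the called genes are shown because these are the genes that passed the threshold. RefSeq's promoter table (build GRCr8) held 3 of the 5, and Foxj1 and Folr1 were not matched. Each line gives the 250 bases before the annotated start, 5′ to 3′ on the gene's strand, with the forkhead core TAAACA (the kind of site bound by Foxj1's protein family), the half-site GTTGCC of the X-box (bound by RFX factors, which act with Foxj1 on cilia genes) and the OTX homeodomain site TAATCC in capitals, on either strand.
Tmem72 (chr4:151645990-151646239, minus strand): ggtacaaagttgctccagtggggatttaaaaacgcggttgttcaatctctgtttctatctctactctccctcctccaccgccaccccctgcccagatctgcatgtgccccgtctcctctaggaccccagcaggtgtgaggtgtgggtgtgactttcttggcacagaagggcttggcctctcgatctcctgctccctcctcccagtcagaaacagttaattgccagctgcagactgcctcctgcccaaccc
Plvap (chr16:18231280-18231529, minus strand): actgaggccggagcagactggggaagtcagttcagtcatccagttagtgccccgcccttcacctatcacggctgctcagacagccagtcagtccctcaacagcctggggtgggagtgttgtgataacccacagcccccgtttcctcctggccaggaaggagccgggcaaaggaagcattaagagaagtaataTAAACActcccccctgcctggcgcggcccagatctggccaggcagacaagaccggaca
Slco1a5 (chr4:176963813-176964062, minus strand): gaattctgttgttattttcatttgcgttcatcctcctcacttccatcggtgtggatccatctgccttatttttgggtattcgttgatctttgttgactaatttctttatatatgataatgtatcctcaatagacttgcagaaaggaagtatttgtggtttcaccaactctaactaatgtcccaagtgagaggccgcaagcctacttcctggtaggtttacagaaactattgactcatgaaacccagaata
Plvap held 1 forkhead core and the other two held none of these motifs. Of 27457 genes in the table, 13.2% had the forkhead core, 10.8% the X-box half-site and 6.95% the OTX site in this window. No match says only that these letters are not in these 250 bases.

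The genes that rose with the steepest fold changes were those of choroid plexus epithelium. Folr1, the folate receptor that carries folate into cerebrospinal fluid, stood at 3.01, 10.4 and 29.9 CPM in In 1, In 2 and In 3 and at 0.0426, 0 and 0.0855 CPM in S 1, S 2 and S 3. Every In library was above every S library, but In 3 was several times higher than In 1. Its log2 fold change was 8.20 ± 1.09 (SE, 3 libraries a group), a rise past the threshold (adjusted p = 0.0358 by edgeR). Each SE of the reported fit is the size of the log2 fold change divided by the square root of edgeR's F statistic. The spread behind it was estimated over all 12 libraries. Tmem72, which encodes a transmembrane protein, stood at 1.05, 4.36 and 15.1 CPM in In and at 0, 0.0416 and 0 in S, and rose by 8.36 ± 1.24 (edgeR adjusted p = 0.0358). Slco1a5, an organic anion transporter gene, stood at 1.30, 5.54 and 16.1 CPM in In and at 0.0426, 0 and 0.0855 in S, and rose by 7.29 ± 1.07 (edgeR adjusted p = 0.0447). All 3 genes had S levels under what 3 counts are worth, and the 6 male libraries lay between 0 and 0.380 CPM for Folr1, between 0 and 0.216 for Tmem72 and between 0 and 0.128 for Slco1a5.

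Of the next 7 genes by p, none of which passed the threshold, 3 are on the choroid plexus list. Sostdc1, a secreted antagonist of BMP and Wnt signals, stood at 5.71, 23.2 and 51.4 CPM in In against 0.213, 0 and 0.0428 in S (8.20 ± 1.17, edgeR adjusted p = 0.111). Prlr, the prolactin receptor, stood at 2.30, 5.74 and 17.2 CPM in In against 0.383, 0 and 0.428 in S (4.94 ± 0.93, adjusted p = 0.178). Clic6, of the chloride intracellular channel family, stood at 8.62, 20.8 and 64.1 CPM in In against 0.170, 0.208 and 0.941 in S (6.13 ± 1.09, adjusted p = 0.203). In all 3 genes the groups did not overlap, and In 3 was the highest and In 1 the lowest of the In libraries, as for Folr1. Prr32, which is on none of the lists, also had In 3 highest and In 1 lowest, with 1.25, 5.15 and 11.1 CPM in In against 0.340, 0.0832 and 0.128 in S (4.94 ± 0.90, adjusted p = 0.111 by edgeR). Sostdc1, Prlr, Clic6 and Prr32 passed the filter on low counts only through the In libraries, so that they had to be higher there.

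Other genes of this epithelium, chosen after their values were seen, also had In 3 highest. Mfrp, a membrane protein gene with a frizzled-related domain, which is not on the list, stood at 5.21, 29.3 and 67.6 CPM in In and 0.170, 0.374 and 0.0855 in S. Kl, which encodes klotho, a co-receptor for fibroblast growth factors, stood at 6.11, 20.8 and 64.5 CPM in In and 0.638, 1.46 and 1.03 in S. Cldn2, a claudin of leaky epithelia, stood at 4.86, 12.7 and 38.9 CPM in In and 0, 0 and 0.299 in S. Aqp1, the water channel of the choroid plexus, stood at 8.37, 26.6 and 40.1 CPM in In and 1.70, 1.16 and 1.37 in S, and at 22.2 CPM in male In 1 with 1.82 to 5.25 CPM in the other male libraries. Their log2 fold changes were 7.29 ± 1.17, 4.86 ± 0.98, 7.48 ± 1.35 and 4.14 ± 0.87 in that order, none past the threshold (edgeR adjusted p from 0.203 to 0.347). Mfrp and Cldn2 passed the filter on low counts only through the In libraries and so had to be higher there, whereas Kl and Aqp1 also pass it without them. The ion pump and exchanger genes that other cells of the brain also use differed less. Of the 19 tested genes for ion and water transport, 15 were higher, 2 of them at an unadjusted p under 0.05 (beside 1.18% of all genes tested), with a median of 0.20. Slc4a2, an anion exchanger, stood at 37.0, 48.9 and 73.0 CPM in In and 33.0, 22.0 and 30.4 in S (0.90 ± 0.23), and Car12, a carbonic anhydrase, at 9.12, 17.9 and 47.2 against 4.17, 8.82 and 14.2 (1.45 ± 0.54).

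Of the 20 choroid plexus genes listed 17 were tested, but 9 of them passed the filter on low counts only through their level in the In libraries, so that they had to be higher there. The other 8 also pass it on the remaining 9 libraries. Of these 8, 7 lay in In above every S library (beside 4.21% of all genes tested), 7 were higher at an unadjusted p under 0.05 (beside 1.18%) and 0 passed the threshold, and their median log2 fold change was 1.95 beside -0.0015 for all genes tested. This list and the others were chosen with earlier results of these data known. Their shares beside those of all genes therefore describe the lists and are not a test. As a description of all 17 tested, each was higher in In, the median was 4.86 (range 0.55 to 8.36), or 3.69 without In 3, and 3 passed the threshold. The 3 that were not tested were Ttr, Kcnj13 and Otx2. Ttr, the transthyretin gene that defines choroid plexus epithelium, and the potassium channel gene Kcnj13 are listed at 0 in all 12 libraries, and Otx2, a transcription factor gene, had 3 counts, all in In 2. A listed 0 cannot be read as absence in this table: 33 of 775 distinct list members are at 0 in all 12 libraries, among them 2 subunits of respiratory complex I, which every cell uses. The summed level of the list, at 210, 422 and 984 CPM in In 1, In 2 and In 3, lay above the S libraries (97.4 to 136) and the male libraries (77.3 to 116). Enpp2, a lysophospholipase gene that oligodendrocytes also express, made up much of the S level: without it the sums were 82.2, 195 and 460 CPM in In and 22.3 to 31.1 in S.

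**Figure D2:**
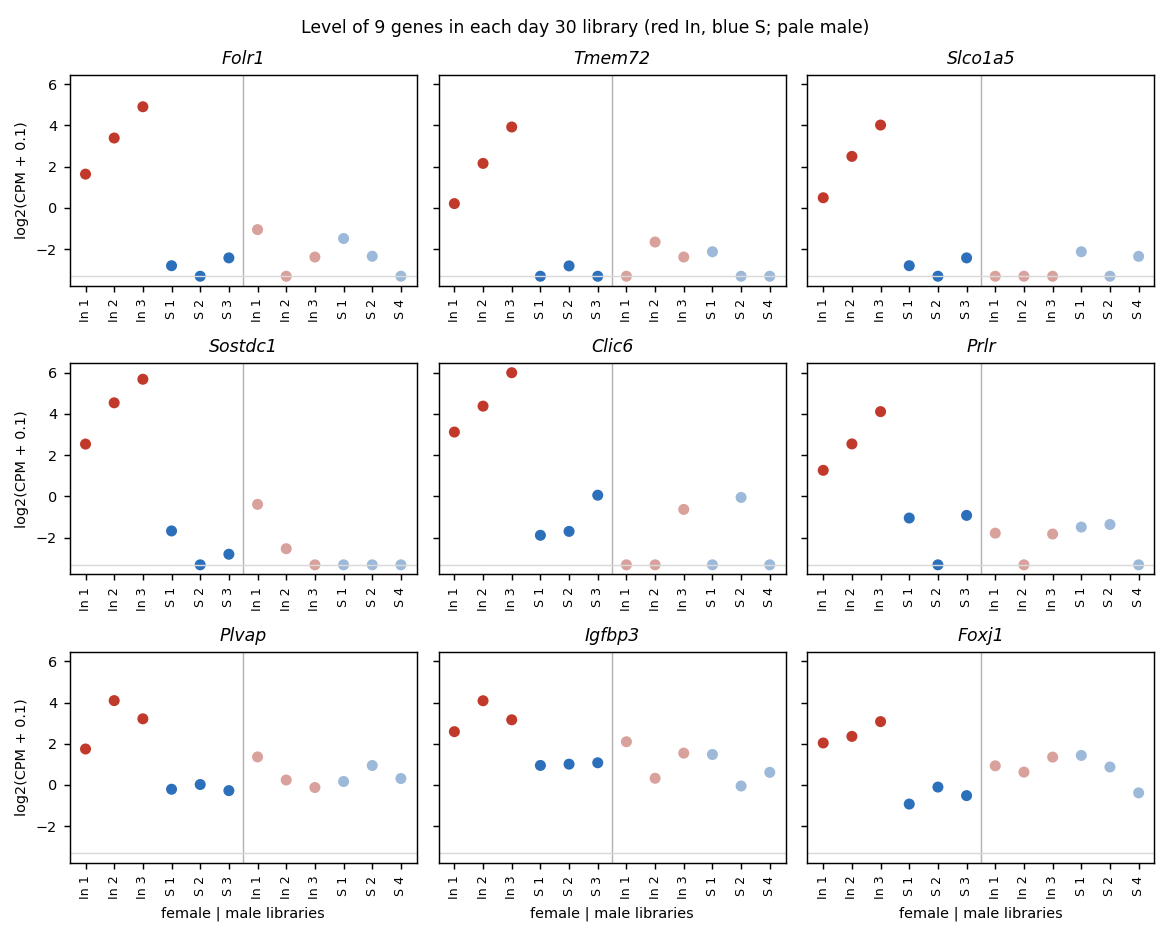
Level of 9 genes on a log2(CPM + 0.1) axis in each of the 12 day 30 libraries. Female In are red, female S blue and male libraries pale, and the grey horizontal line is 0 CPM. Folr1, Tmem72, Slco1a5, Sostdc1, Clic6 and Prlr are lowest in In 1 and highest in In 3 among the female In libraries, Plvap and Igfbp3 are highest in In 2, and Foxj1 differs less among them.

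A gene of fenestrated vessels rose as well. Plvap, which forms the diaphragms of fenestrated capillaries, stood at 3.26, 17 and 9.17 CPM in In and 0.766, 0.915 and 0.727 in S, and rose by 3.60 ± 0.55 (edgeR adjusted p = 0.0358). The groups did not overlap, and In 2 was highest. The male libraries lay between 0.818 and 2.47 CPM. Esm1, a proteoglycan gene of endothelial tip cells chosen after its values were seen, did not pass the filter and had 4, 76 and 97 counts in In and 0 in each S library. Pooled over In this is 58.4-fold over a floor of 3 counts for the S group, which is not a lower bound. Its male counts were 4, 1 and 3 in In and 0, 0 and 1 in S. The other untested members of that list overlapped between groups: Cd36, a fatty acid receptor gene, had 11, 0 and 1 counts in In and 0, 3 and 7 in S, and Gpihbp1, which anchors lipoprotein lipase to capillaries, 0, 11 and 0 in In and 6, 0 and 0 in S. Igfbp3, an insulin-like growth factor binding protein gene, shared the In 2 maximum, with 5.91, 16.9 and 8.86 CPM in In and 1.83, 1.91 and 2.01 in S (2.46 ± 0.48, edgeR adjusted p = 0.175). Of 5 tested genes of fenestrated vessels 3 were higher and 1, Plvap, passed: Vwf, von Willebrand factor, stood at 0.04, Nrp1, a co-receptor for vascular growth factors, at 0.03 and Plpp3, a lipid phosphatase, at -0.12, or 0.43 without S 3 (log2 fold change). Of 14 general endothelial markers 4 were higher and none passed (median -0.08), and those of pericytes and smooth muscle in 4 of 11 with a median of -0.10.

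Among genes of ependyma and motile cilia, Foxj1 stood at 4.01, 5.03 and 8.33 CPM in In and 0.426, 0.832 and 0.599 in S, and rose by 3.21 ± 0.50 (edgeR adjusted p = 0.0359). The groups were well apart, and the In libraries were closer to each other than for the choroid plexus genes. In males Foxj1 lay between 0.667 and 2.60 CPM, with 5 of the 6 libraries above every female S library and all 6 below every female In library. Of the structural genes of the cilium, Fam183b, a cilia-associated gene, had a log2 fold change of 4.12, Dnali1, a dynein light chain gene, 1.52, Dnah11 and Dnah12, heavy chain genes of axonemal dynein, 1.29 and 1.86, and Rsph9, a radial spoke gene, 0.94. None of these 5 passed the threshold. Rsph10b, another radial spoke gene, chosen after its values were seen, stood at 2.25, 3.29 and 6.14 CPM in In and 0.383, 0.499 and 0.770 in S (2.81 ± 0.66, edgeR adjusted p = 0.347). Rfx3, a transcription factor gene of ciliated cells, did not follow Foxj1, with 6.56, 8.04 and 10.1 CPM in In and a log2 fold change of -0.11 ± 0.34.

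The 2 cilia lists (ependyma with motile cilia, and axonemal dyneins with radial spokes) share 7 genes and hold 43 between them, of which 32 were tested. Of these, 29 were higher in In, 17 lay above every S library and 1, Foxj1, passed the threshold. At an unadjusted p under 0.05 there were 12 higher (beside 1.18% of all genes tested) and 0 lower (0.551%). These 12 include Fam183b and others that passed the filter on low counts only through the In libraries and so had to be higher there. The median was 1.03. Of the 24 that pass the filter without the In libraries, 21 were higher, with a median of 0.98. Among these 24, 12 lay above every S library (50%, beside 4.21% of all genes tested). The cilia lists too were chosen with earlier results of these data known, so these shares are a description and not a test. Without In 3 the median of the ependymal list went from 1.29 to 0.96 and that of the axonemal list from 0.99 to 0.72. Of the members that were not tested, Pifo, a gene of cilium assembly, had 2, 10 and 17 counts in In and 0 in each S library. Pooled over In this is 9.57-fold over a floor of 3 counts for the S group, again not a lower bound. Mlf1 had 16, 6 and 53 counts in In and 5, 6 and 1 in S. Deup1, a gene of centriole amplification, had 0, 2 and 13 counts in In and 3, 2 and 11 in S, and Dnaaf1, a dynein assembly factor gene, 7, 16 and 5 in In and 8, 12 and 4 in S, so for both the groups overlapped. Rsph4a, Tppp3, Mcidas, Ccno and Dnah3 were listed at 0 in the female libraries. Genes for intraflagellar transport, which builds primary cilia as well as motile ones, numbered 17 higher out of 21, but their median was 0.07, with none at an unadjusted p under 0.05.

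The X-box half-site was then looked up for the cilia genes. In the promoter table, 32 of the 43 genes of both cilia lists were matched, and 13 of them (40.6%, beside 10.8% of all genes) had it in the 250 bases before a start. Genes can have several annotated starts and were counted once. For the choroid plexus list it was 2 of 13 matched genes (15.4%). The match is a description of the lists, and whether it goes with the fold changes was not tested. Not all members of the cilia lists were higher: Rfx3 and Dnai2, an intermediate chain of axonemal dynein, had log2 fold changes of -0.11 and -0.41. Hydin, a gene of the cilium's central pair, Dnah2, a dynein heavy chain gene, and Drc1, of the nexin-dynein regulatory complex, are shown because each has the half-site and lay in In above every S library. The capitals mark GTTGCC or its reverse complement GGCAAC and, in Drc1, the reverse complement of the OTX site.
Hydin (chr19:55146216-55146465, plus strand): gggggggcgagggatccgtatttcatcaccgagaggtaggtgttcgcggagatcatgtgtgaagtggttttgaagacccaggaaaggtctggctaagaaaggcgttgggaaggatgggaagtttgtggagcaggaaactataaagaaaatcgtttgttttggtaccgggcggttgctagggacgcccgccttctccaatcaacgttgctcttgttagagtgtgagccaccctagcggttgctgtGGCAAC
Dnah2 (chr10:54766027-54766276, minus strand): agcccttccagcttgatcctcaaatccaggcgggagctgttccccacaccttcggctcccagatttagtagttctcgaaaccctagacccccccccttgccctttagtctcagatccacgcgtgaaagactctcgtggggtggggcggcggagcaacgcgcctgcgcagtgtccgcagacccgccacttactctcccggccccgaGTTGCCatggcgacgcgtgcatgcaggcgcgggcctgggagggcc
Drc1 (chr6:31779257-31779506, minus strand): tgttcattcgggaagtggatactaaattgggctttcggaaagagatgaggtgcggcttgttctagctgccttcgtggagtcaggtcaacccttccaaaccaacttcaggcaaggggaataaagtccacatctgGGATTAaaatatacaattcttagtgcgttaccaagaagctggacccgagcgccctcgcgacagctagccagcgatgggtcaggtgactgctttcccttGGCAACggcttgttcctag
Hydin stood at 1.90, 2.93 and 4.32 CPM in In and 1.79, 1.66 and 1.67 in S (0.84 ± 0.55). Dnah2 stood at 1.95, 1.23 and 2.88 CPM in In and 1.15, 0.998 and 0.813 in S (1.03 ± 0.49). Drc1 stood at 2.66, 2.57 and 3.56 CPM in In and 0.766, 0.998 and 2.10 in S (1.18 ± 0.69). None of the 3 passed the threshold.

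The 3 In libraries differed among themselves, and did so more for the choroid plexus genes than for the cilia genes. For the 17 tested choroid plexus genes the median level in In 1 was 13.4% of that in In 3 and in In 2 it was 36.9%, and In 3 was the highest in 17 of 17, beside 29.5% of all genes tested. For the ependymal list the medians were 70.6% and 82.0%, for the axonemal list 81.5% and 82.0%, and for all genes 100% and 102%. Among the 178 genes higher at an unadjusted p under 0.05, In 3 was the highest in 119 (66.9%), and among the 40 with the smallest p in 36. Of those 178, 16 are on the choroid plexus list and 12 on the cilia lists. In 2 was the highest in 36 of the 178 and In 1 in 23, beside 34.1% and 36.5% of all genes tested. Plvap and Igfbp3 were among those with their highest level in In 2. The calls ended both without In 2 and without In 3.

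**Figure D3:**
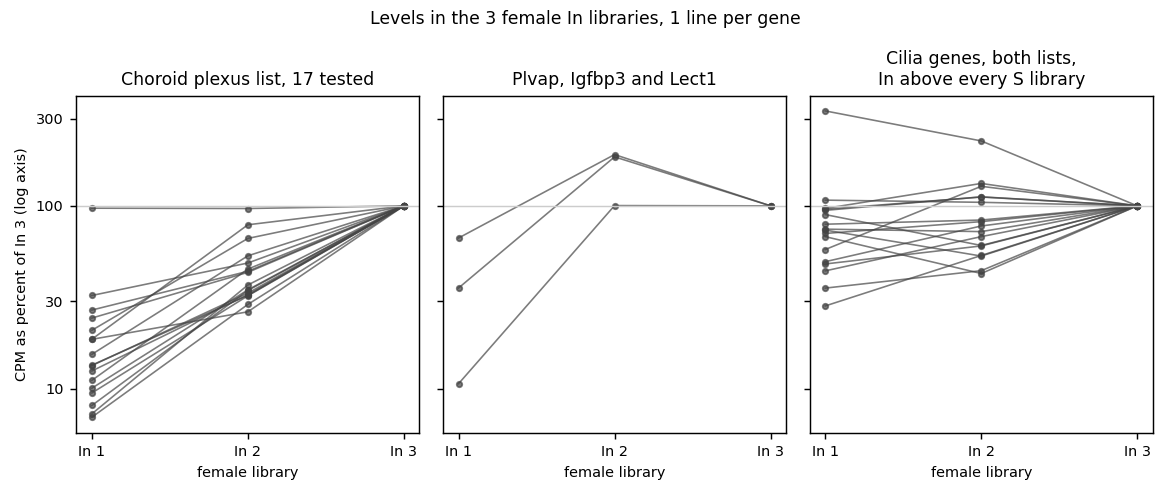
Level in each female In library as a percent of the level in In 3, on a log axis, with 1 line per gene. The choroid plexus genes (left) have a median of 13.4% in In 1 and 36.9% in In 2. In the middle, Plvap and Igfbp3 are above 100% in In 2 and Lect1 is at 100.4%. The cilia genes that lay above every S library (right) are scattered more closely around In 3.

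Growth factor, meningeal and matrix genes were examined next. Of 20 genes for growth factors and hormones of the choroid plexus and meninges, 16 were higher with a median of 0.40. Of these, 6 were at an unadjusted p under 0.05 (beside 1.18% of all genes tested) and 0 passed the threshold. These 6 include Sostdc1, which passed the filter on low counts only through the In libraries and so had to be higher there. Among the 18 that also pass the filter on the other 9 libraries, 14 were higher and the median was 0.35. Htr2c, the serotonin receptor gene at its highest in choroid plexus, stood at 4.61, 18.6 and 51.3 CPM in In and 1.53, 2.08 and 1.84 in S (3.77 ± 0.78, edgeR adjusted p = 0.314). Igfbp2, an insulin-like growth factor binding protein gene of choroid plexus and meninges, stood at 22.1, 56.4 and 119 CPM in In and 9.40, 13.4 and 16.5 in S (2.33 ± 0.53). Igf2, a growth factor gene of the same tissues, stood at 70.2, 101 and 231 CPM in In and 63.4, 44.0 and 56.5 in S (1.30 ± 0.33). Both were highest in In 3, as the choroid plexus genes were. Among 13 markers of fibroblasts and meninges 10 were higher, the median being 0.24, and 4 were higher at an unadjusted p under 0.05 (beside 1.18% of all genes tested), these being Igfbp2, Igf2, Slc13a4, a sulfate transporter gene (1.54), and Fmod, which encodes fibromodulin (0.94). The collagen genes Col3a1 (0.14) and Col1a1 (0.03) and Dcn, which encodes decorin (-0.05), stood near 0. They were chosen after their values were seen and do not stand for the list. Mgp, Islr and Lum, chosen in the same way, had In over S ratios of scaled summed counts of 1.30, 1.26 and 1.19. Of the 13 markers 3 were lower. Among 19 collagen and basement membrane genes, Col8a1 stood at 2.01 ± 0.63 and Col9a3 at 0.78, and the median was 0.08. Cdkn1c, a cell cycle inhibitor, stood at 9.37, 13.9 and 19 CPM in In and 5.28, 5.03 and 5.56 in S (1.41 ± 0.25, edgeR adjusted p = 0.101), and Wipf3, of a family that binds the actin regulator WASP, at 18.5, 28.2 and 43.2 against 11.8, 14.1 and 9.97 (1.33 ± 0.27, adjusted p = 0.203).

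No gene of the interferon, immediate early, glucocorticoid or heat shock lists passed the threshold. Of 21 interferon response genes 20 were higher (median 0.30), and 6 lay above every S library, beside 4.21% of all genes tested. Irf7, a transcription factor of that response, stood at 11.3, 14.9 and 20.8 CPM in In and 9.40, 12.3 and 2.40 in S (0.96 ± 0.41), so that the groups overlapped and S 3 was low. Chosen after their values were seen, Mx2 (511, 773 and 173 counts in S 1, S 2 and S 3) and Oas1a (55, 81 and 20) also had a low S 3. Rsad2 (16, 14 and 17) did not. The list's summed level was 356, 320 and 391 CPM in In and 309, 298 and 251 in S. Bst2, an antiviral membrane protein gene, stood at 0.52. Of 20 immediate early genes 17 were higher (median 0.30, or 0.16 without In 1). Egr1 stood at 49.7, 52.1 and 40.5 CPM in In and 31.0, 37.3 and 24.9 in S (0.61 ± 0.22), without overlap, and Dusp1, which dephosphorylates MAP kinases, at 59.1, 34.3 and 43.1 against 31.0, 34.4 and 19.6 (0.68 ± 0.23), with overlap. Fos stood at 0.28 ± 0.39. Glucocorticoid response genes had a median of 0.15, which was -0.05 without In 1, and among them Fkbp5, a chaperone of the glucocorticoid receptor, stood at 0.59. All 11 tested heat shock chaperone genes were higher, with a median of 0.22 and a range of 0.05 to 1.03, and 0 at an unadjusted p under 0.05.

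The cells that make up motor cortex showed medians near 0 and no call. Of 13 pan-neuronal markers 6 were higher, the median being -0.01 (0.05 when scaled by library totals). Excitatory neuron markers had a median of 0.00, layer 5 and corticospinal markers 0.04 and inhibitory neuron markers -0.05, with none of these lists' genes at an unadjusted p under 0.05. Subunits of respiratory complex I were higher in 9 of 32, the median being -0.02 (0.02 when scaled by library totals). Of 19 microglial markers 16 were lower (beside 50.4% of all genes), the median being -0.13, and Aif1 stood at -0.22 ± 0.31. Of 14 astrocyte markers 13 were lower, the median being -0.23, which was 0.20 without S 3 and 0.02 without In 2, and Aldoc, a glycolytic enzyme gene, stood at -0.37. Gfap, the filament gene of astrocytes, stood at 0.02 ± 0.23 and at -0.35 without In 1. Of 15 oligodendrocyte markers 12 were higher (median 0.07), and Mbp stood at 0.06 ± 0.51. Blood cell markers, mostly haemoglobin genes, were lower in 6 of 7 (median -1.03), but their summed level ran from 7.29 to 80.3 CPM in In and from 10.9 to 167 in S.

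**Figure D4:**
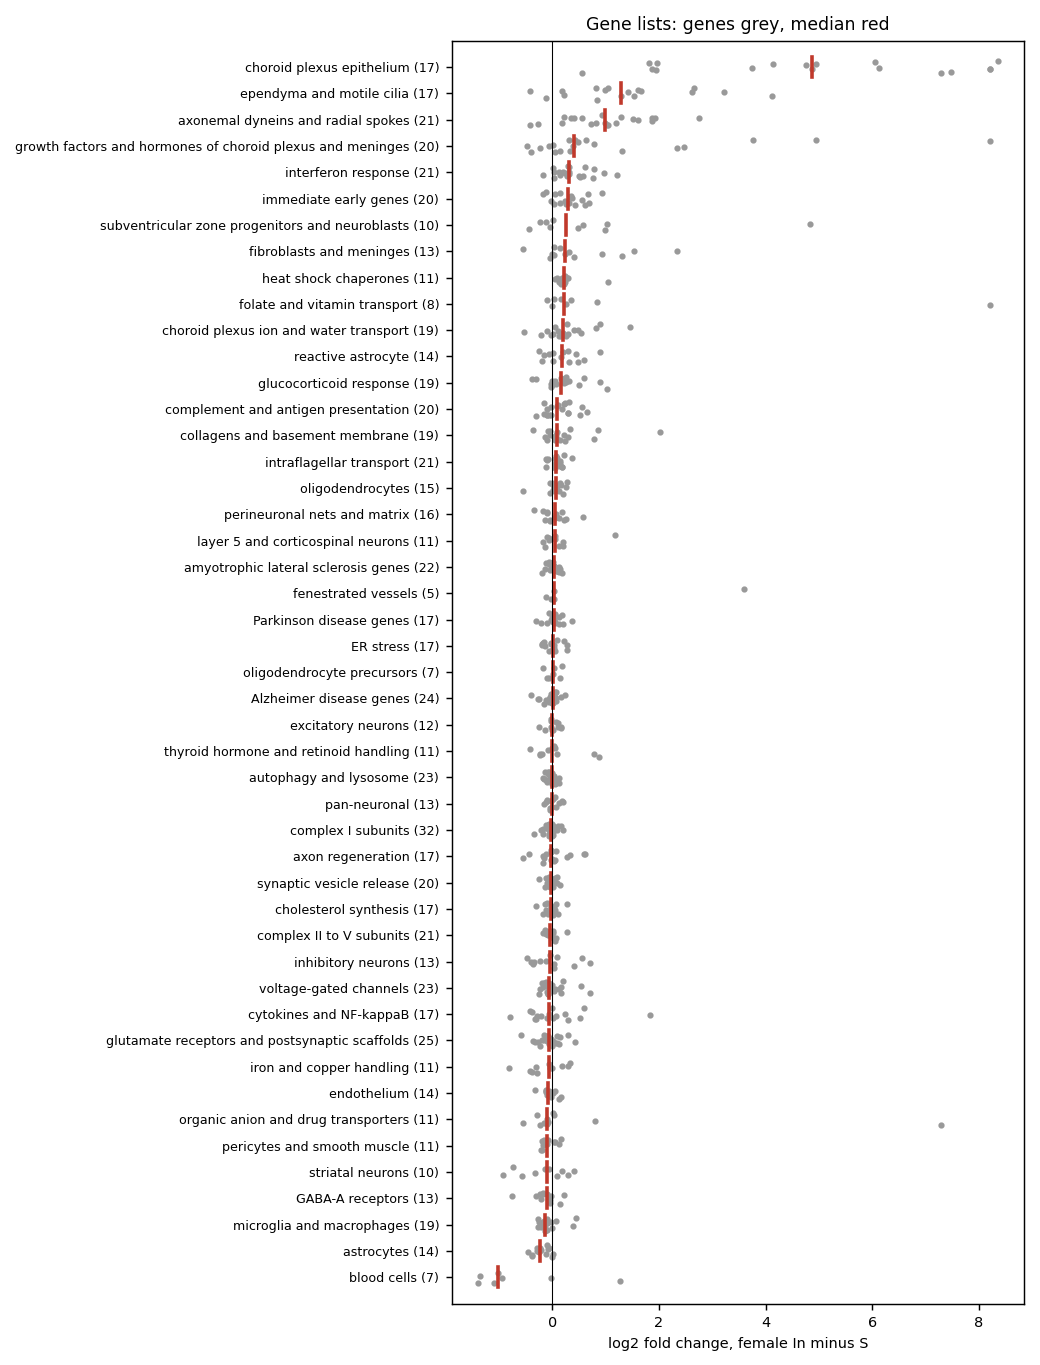
Log2 fold change of female In minus S for the tested genes of the 47 lists, with each gene in grey and each list's median in red, ordered by median, and the number of tested members in brackets. The choroid plexus list (median 4.86), the ependymal list (1.29) and the axonemal list (0.99) are at the top, and the neuronal, respiratory and disease lists lie near 0.

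The genes linked to neurodegeneration, which the study's title names, had medians of 0.00 for the 24 Alzheimer disease genes tested, 0.03 for the 22 of amyotrophic lateral sclerosis and 0.02 for the 17 of Parkinson disease, with none at an unadjusted p under 0.05. App, the amyloid precursor gene, stood at 0.01 ± 0.22 (95% interval -0.42 to 0.45), Mapt, which encodes tau, at 0.04 ± 0.21 (-0.37 to 0.46), and Tardbp, which encodes the RNA-binding protein TDP-43, at -0.03 ± 0.14 (-0.31 to 0.25). Sod1, a superoxide dismutase gene, stood at 0.15 ± 0.19 (-0.22 to 0.52). Apoe, a lipid carrier gene, stood at -0.12 ± 0.31 (-0.73 to 0.49), and at 0.23 without S 3. These intervals exclude changes of 2-fold or more for all 5 in this fit, but not smaller ones.

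Among the genes lower in In, none passed the threshold, the smallest adjusted p by edgeR being 0.509. The 83 genes at an unadjusted p under 0.05 had a median of -0.78, and 0 of them are on the choroid plexus or cilia lists. Csf3r, the receptor for granulocyte colony-stimulating factor, stood at 10.4, 10.4 and 9.39 CPM in In and 17.3, 14.5 and 19.3 in S (-0.76 ± 0.19), with the groups apart and the In libraries close together. Gpr84, a fatty acid receptor of myeloid cells, stood at 17.6, 15.7 and 14.8 CPM in In and 24.6, 21.6 and 26.7 in S (-0.60 ± 0.17). Anks6, an ankyrin repeat gene of primary cilia, stood at 4.26, 3.13 and 3.37 CPM in In and 7.53, 7.24 and 7.01 in S (-1.02 ± 0.29). Bach2, a transcriptional repressor of lymphocytes, stood at 1.95, 1.31 and 0.833 CPM in In and 4.68, 3.08 and 2.78 in S (-1.37 ± 0.45). Greb1, an oestrogen-responsive gene, stood at 2.71, 2.30 and 1.29 CPM in In and 2.38, 5.53 and 6.89 in S, with overlap (-1.24 ± 0.43). The others of the 12 with the smallest p were Praf2 (-0.45), Rhobtb1 (-0.87), Tex40 (-0.79) and the long noncoding RNA gene Snhg11 (-0.57), and 3 listed by an identifier alone.

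The difference of the In minus S effects between females and males was tested in the same fit, and 0 of 15074 genes passed by edgeR (smallest adjusted p 0.940), with 619 at an unadjusted p under 0.05, while DESeq2 called 6 and limma-voom 0. So although 5 genes passed in females, no effect was shown by edgeR to differ between the sexes. For Foxj1 the male effect was 0.14 ± 0.49 and the difference 3.08 ± 0.69, and for Plvap they were 0.14 ± 0.58 and 3.46 ± 0.79. For Folr1 the male effect was -0.06 ± 1.46, from counts near 0 in both groups. The choroid plexus list had a male median of 0.10, with 9 of 17 higher, and the ependymal list 0.01.

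**Figure D5:**
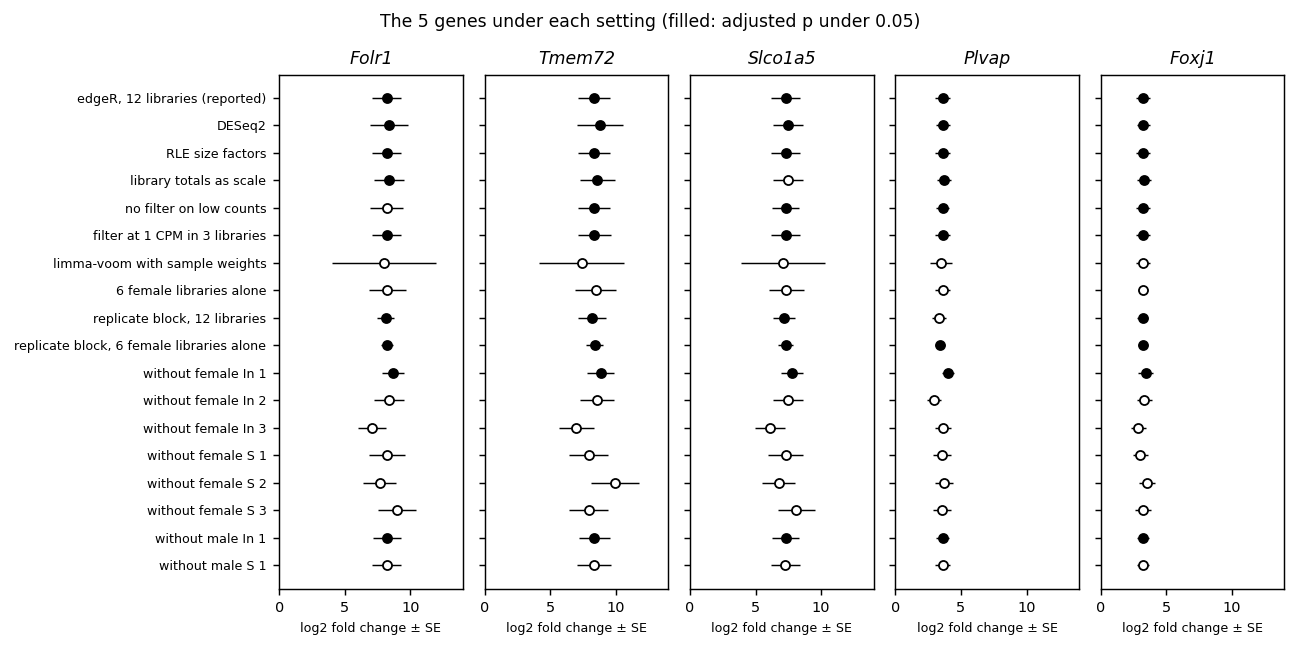
Log2 fold change ± SE of the 5 genes that rose, under the reported fit (top) and each of 17 alternatives. Filled points have an adjusted p under 0.05. All points lie above 0, which was nearly fixed in advance because the In and S libraries did not overlap for these genes. Folr1, Plvap and Slco1a5 are filled in 8 of the 17 alternatives and Tmem72 and Foxj1 in 9.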

How the data were processed

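RNA-seq counts were analysed for the 12 day 30 libraries of rat motor cortex, grouped by sex and condition in the labels. The submitters' processing notes name HISAT2, edgeR and the genome build rn6, without versions. What the authors deposited is a table of raw counts per gene symbol, with no stated use of strand; 7 summary lines were dropped. Of 31038 genes listed, 9706 had no read. Counts were fitted with edgeR 4.0.16 in R 4.3.3 (TMM, filterByExpr, robust quasi-likelihood F test, 8 residual degrees of freedom, common biological coefficient of variation 0.259), and p-values were adjusted by Benjamini-Hochberg over the 15074 genes tested. The method was run on simulated data with the same spread for every gene and without the genes of lowest count. That check does not cover genes with few S counts and a wide spread among the In libraries. Replicates of a group differed by more than sampling noise.

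The members and the 47 gene lists were chosen with earlier results of these data known. Genes named are the calls, the 12 with the lowest p on either side, at most 4 members per described list and fixed examples (Gfap, Aif1, Fos, App, Mapt, Tardbp, Sod1, Apoe, Mbp, Ttr). Exceptions are marked as chosen after their values were seen, as are Rfx3, Dnai2, Hydin, Dnah2, Drc1, Enpp2, Lect1, Col3a1, Col1a1, Dcn and the genes that were not tested. Alternatives used DESeq2 1.42.0, limma 3.58.1 (voom), other scalings and filters, single libraries left out, female libraries alone and a replicate block; leaving out male In 1 or male S 1 was added after seeing the data. Promoter sequences are from RefSeq (GRCr8), whose build differs from that of the counts. Figures were drawn with matplotlib.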

Additional observations from a re-analysis of the deposited data

How the results depend on the processing

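Beside the 5 genes called, DESeq2 called 33, a fit with no filter on low counts 10, limma-voom 0 and a fit of the 6 female libraries alone 0 (446 at an unadjusted p under 0.05). RLE size factors and a filter at 1 CPM in 3 libraries gave 5 and library totals as scale 4. Leaving out 1 female library gave between 0 and 24 calls. Leaving out male In 1 gave 10 and male S 1 gave 0, both added after seeing the data. A replicate block by library number gave 10 calls with 12 libraries and 24 with the female libraries alone. Libraries with the same number deviated together with correlations of 0.0486, 0.129 and 0.0503. In 2 was closest to S 2 and In 3 to S 3, but In 1 was closest to S 3 (0.106). The labels state no pairs, and the numbers were not taken as pairs in the reported fit. Every call under these settings was higher in In. For the difference between sexes only DESeq2 made calls (6), and the other settings gave 0. Over the fits without 1 library the log2 fold change ran from -0.50 to 0.43 (without S 3) for Plpp3, from -0.35 (without In 1) to 0.22 for Gfap and from -0.33 to 0.23 (without S 3) for Apoe, each a change of sign. The causes were not tested. The adjusted p over the alternatives ran from 1.5e-05 to 1 for Folr1, from 4.2e-07 to 0.44 for Plvap and from 6.6e-07 to 0.38 for Foxj1.

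Depth limits the fold changes of the genes whose S levels are under what 3 counts are worth, such as Folr1, Tmem72 and Slco1a5. A better counted gene could also have a wide SE: Enpp2, with 5931 counts over the S libraries, had an SE of 0.49. Enpp2 stood at 128, 227 and 524 CPM in In 1, In 2 and In 3. It also varied among the males, with 26.9 CPM in male In 1 and 59.5 to 81.1 in the others. Which libraries set the SE was not tested.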
